A study of Mus musculus with 6 samples.

Results

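The TEAD transcription factors and the VGLL cofactors were followed through the transcriptome of NIH3T3 cells, immortalized fibroblasts of mouse embryos. The members were taken by symbol, Tead1 to Tead4 and Vgll1 to Vgll4, and all 8 were found among the 55401 genes counted. The study asked whether aurintricarboxylic acid (ATA), a small molecule, interferes with transcription driven by TAZ-CAMTA1 (TC), the fusion protein of epithelioid hemangioendothelioma, which keeps the TEAD-binding part of TAZ. Poly(A) RNA was sequenced in 6 libraries. The EV group (2 libraries) came from NIH3T3 cells that carried an empty vector and received DMSO, the vehicle. The TC group (1 library) came from NIH3T3 cells that stably expressed TAZ-CAMTA1 and received DMSO, and the TC + ATA group (3 libraries) from TC-expressing cells that received 10 μM ATA. Whether the TC-expressing cells are a clone or a pool is not given in the sources used here. Every culture was seeded 16 h before treatment and was treated for 48 h. The TC cells were set against vector cells of the same line, and the labels do not say whether the libraries of a group came from separate cultures, so p-values measure only the spread between these libraries, which may be technical.

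TEADs bind DNA through a conserved TEA domain and carry little activating power of their own. They turn genes on when the Hippo-regulated coactivators YAP and TAZ dock on their C-terminal domain. VGLL proteins dock on an overlapping surface of the same domain through a short Tondu motif, and VGLL4 is known to compete with YAP for it.

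Library totals ran from 58471484 to 74413193 counts. A count of 3, taken as the floor of detection, corresponded to between 0.0403 and 0.0513 counts per 1000000 of the library total. CPM stands here for counts per 1000000 of the TMM-adjusted library size. TC had a single library, so every test took its spread from the other 5 libraries, with 3 residual degrees of freedom, and TC has no replicate check. The same TC library serves both comparisons that involve TC, in opposite roles. The 2 EV libraries differed from each other more than the TC + ATA libraries did, with a chi-square per degree of freedom over genes of 61.3 against 5.86 to 6.61. All 8 fibroblast markers (Col1a1, Col1a2, Col3a1, Pdgfra, Pdgfrb, Thy1, Fn1 and Vim) were at 1 CPM or more in every library. Their sum was 14697 and 16841 CPM in EV, 18584 CPM in TC and 18194 to 19379 CPM in TC + ATA. The list held values in both directions. Pdgfra was at 404 and 422 CPM in EV and 180 CPM in TC, Thy1 at 204 and 183 CPM and 69.6 CPM, and Fn1 at 2993 and 2380 CPM and 1516 CPM, whereas Col1a1 was at 3240 and 2791 CPM in EV and 4356 CPM in TC, and Vim at 3431 and 2789 CPM and 4847 CPM. The marker sums of other cell types stayed far below. They reached at most 4.59 CPM for epithelial, 3.85 CPM for endothelial and 8.54 CPM for haematopoietic genes, and Epcam never exceeded 0.0575 CPM. Myogenic genes summed to 27.6 to 43.5 CPM, nearly all of it Des. In bulk RNA, fewer cells of a type and less RNA per cell cannot be told apart, and the part of these marker shifts in the results for the members was not tested.

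Promoter sequence was read for the members where it was available, to show where the letters that TEADs recognise occur. RefSeq start sites on GRCm38.p6 gave windows of 300 bases, from 250 before to 50 after the start, for 6 of the 8 members, 8 windows in all, and none for Tead1 or Tead4. The motif searched was GGAATG, which reads CATTCC on the opposite strand, along with a longer form that contains it, GGAATGT, which reads ACATTCC there. Among 27025 genes with a window, 16.6% held the shorter motif and 4.47% the longer one. Vgll3 and Vgll4, which were higher in TC-expressing cells, and Tead3 and Tead2, which were lower, are given on the strand of the gene, 5′ to 3′, as the bases before the RefSeq start that lie in no exon of the gene, with the shorter motif in capitals.
Vgll3 chr16:65814939-65815188, plus strand: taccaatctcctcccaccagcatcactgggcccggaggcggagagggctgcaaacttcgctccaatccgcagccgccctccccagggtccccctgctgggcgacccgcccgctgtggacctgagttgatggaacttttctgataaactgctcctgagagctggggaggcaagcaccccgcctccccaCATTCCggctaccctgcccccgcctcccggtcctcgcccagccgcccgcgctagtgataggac
Vgll4 chr6:114969204-114969453, minus strand: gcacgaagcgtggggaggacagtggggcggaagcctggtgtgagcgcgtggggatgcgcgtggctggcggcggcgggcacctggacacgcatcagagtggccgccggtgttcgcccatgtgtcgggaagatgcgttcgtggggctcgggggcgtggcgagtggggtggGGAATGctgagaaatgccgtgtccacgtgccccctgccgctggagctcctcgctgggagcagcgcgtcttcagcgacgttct
Tead3 chr17:28350818-28351055, minus strand: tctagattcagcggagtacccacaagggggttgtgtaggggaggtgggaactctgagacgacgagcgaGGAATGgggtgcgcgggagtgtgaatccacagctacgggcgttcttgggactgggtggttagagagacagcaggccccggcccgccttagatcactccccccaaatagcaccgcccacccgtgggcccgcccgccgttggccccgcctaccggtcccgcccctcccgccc
Tead2 chr7:45215542-45215752, plus strand: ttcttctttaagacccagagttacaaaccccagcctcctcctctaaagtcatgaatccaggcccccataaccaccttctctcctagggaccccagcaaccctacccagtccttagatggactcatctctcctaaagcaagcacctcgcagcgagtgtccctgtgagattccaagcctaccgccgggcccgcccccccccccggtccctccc
The motif began 63 bases before the Vgll3 start, where it was also the longer form, 82 bases before the Vgll4 start, which lies inside the gene as GENCODE annotates it, and 182 bases before the outermost Tead3 start. A second annotated Tead3 start had matches 123 and 114 bases before it, the latter also in the longer form, and one 2 bases after it. The windows of Tead2, Vgll2 and the innermost Tead3 start held none, and the window of Vgll1, a gene without a single read in these libraries, held a match 162 bases before its start. Thus 4 of 6 members with a window held the letters, among them a member that was lower and a member that was not detected. A match describes the sequence only.

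TC-expressing cells carried more transcript of Tead1, Tead4, Vgll3 and Vgll4, with TC between 2.07- and 2.66-fold above EV, and less of Tead2 and Tead3. Of the 8 members, 7 passed the filter on low counts and were tested, and 6 of these were called in TC versus EV, 4 higher and 2 lower. The call was an adjusted p of at most 0.05 from edgeR's quasi-likelihood test with Benjamini-Hochberg adjustment over all 18539 genes tested. Over all of those genes 28.0% were called in this comparison, 14.8% higher and 13.2% lower. The same 6 members were called in the same directions in TC + ATA versus EV, where 36.6% of all tested genes were called, 18.0% higher and 18.6% lower. The libraries of TC + ATA and EV did not overlap for these 6 of the 7 members tested, and for 58.8% of all genes. None of the 7 was called in TC + ATA versus TC, where 0.583% of genes were.

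**Figure D1:**
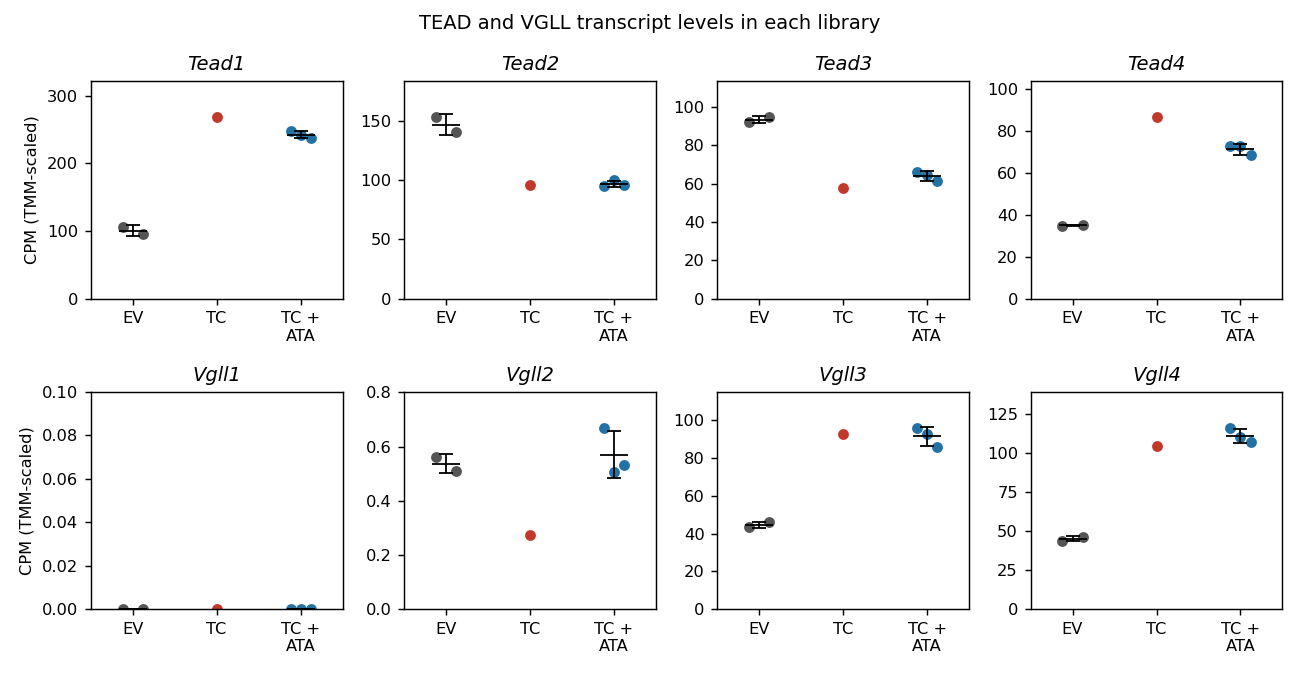
Transcript levels of the 8 members in CPM after TMM scaling, one panel per gene with its own linear axis from 0, one point per library, and horizontal lines with bars for the mean ± SD of EV (n = 2) and TC + ATA (n = 3). Tead1, Tead4, Vgll3 and Vgll4 stood higher in all 4 libraries of TC-expressing cells than in both EV libraries, Tead2 and Tead3 stood lower in all 4, and Vgll1 was at 0 in every library.

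Tead1, a TEAD essential for the developing heart, lies on chromosome 7 from 112679318 to 112906807 on the plus strand of GRCm38 (ENSMUSG00000055320). It was read at 106.5 and 94.94 CPM in the EV libraries, 267.9 CPM in TC and 247.1, 241.7 and 237.2 CPM in TC + ATA. Its 4 values in TC-expressing cells were all above both EV values, and the TC library was the highest. TC exceeded EV by a log2 fold change of 1.41 (standard error, SE, 0.09, 95% interval 1.21 to 1.61, adjusted p = 6.42e-06 from edgeR), a 2.66-fold difference. Among the 10422 genes with a mean of at least 5 CPM, 2.37% had a larger log2 fold change, with its sign, in this comparison. The log2 fold change of TC + ATA over EV was 1.26 (SE 0.07, 95% interval 1.10 to 1.43, adjusted p = 2.04e-06 from edgeR).

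Tead4, the TEAD that the trophectoderm of the early embryo needs, lies on chromosome 6 from 128224288 to 128300823 on the minus strand (ENSMUSG00000030353). Its level was 34.83 and 34.87 CPM in EV, 86.31 CPM in TC and 72.57, 72.56 and 68.21 CPM in TC + ATA. The groups were fully apart, with EV lowest, TC + ATA between and TC highest. The log2 fold change of TC over EV was 1.31 (SE 0.08, 95% interval 1.13 to 1.49, adjusted p = 5.34e-06 from edgeR), and 2.73% of genes of at least 5 CPM had a larger one. It was 1.03 in TC + ATA versus EV (SE 0.06, 95% interval 0.89 to 1.17, adjusted p = 3.32e-06 from edgeR), a 2.04-fold difference.

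Tead2, the member with the highest transcript level per kb of exon in EV cells, moved the other way. It lies on chromosome 7 from 45215753 to 45233644 on the plus strand (ENSMUSG00000030796) and was read at 152.9 and 140.4 CPM in EV, 95.59 CPM in TC and 95.37, 99.66 and 95.66 CPM in TC + ATA. The TC value fell inside the narrow range of the TC + ATA libraries, and all 4 lay below EV. The fitted log2 fold change over EV was −0.62 for TC (SE 0.09, 95% interval −0.82 to −0.42, adjusted p = 0.000815 from edgeR) and −0.60 for TC + ATA (SE 0.06, adjusted p = 9.36e-05 from edgeR). Tead2 shares 13 exonic bases with Cd37 on the opposite strand, a gene with 17 to 111 counts per library against 5420 to 11435 for Tead2. No other member overlaps an exon of another gene.

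Tead3, a TEAD expressed in placenta among other tissues, lies on chromosome 17 from 28331671 to 28350817 on the minus strand (ENSMUSG00000002249). It was at 91.85 and 94.48 CPM in EV, 57.87 CPM in TC and 66.18, 64.34 and 61.18 CPM in TC + ATA. Every TC + ATA library stood between TC and EV, nearer to TC. Over EV the log2 fold change was −0.69 for TC (SE 0.09, 95% interval −0.88 to −0.49, adjusted p = 0.000376 from edgeR) and −0.54 for TC + ATA (SE 0.06, adjusted p = 0.000144 from edgeR). Among genes of at least 5 CPM, 7.51% had a smaller log2 fold change than Tead3 in TC versus EV and 9.19% a smaller one than Tead2.

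The VGLL genes spanned the whole range of detection. Vgll1 (ENSMUSG00000031131, chromosome X from 57088106 to 57106540) encodes a cofactor that docks on a TEAD surface only partly shared with TAZ. It had 0 counts in all 6 libraries, which allows up to 0.0403 to 0.0513 counts per 1000000 of the library total. Vgll2 (ENSMUSG00000049641, chromosome 10 from 52022502 to 52028471), a cofactor of skeletal muscle, had 42 and 39 counts in EV, 19 in TC and 38, 36 and 37 in TC + ATA. The exact Poisson 95% interval of the TC count was 11.4 to 29.7. In the other libraries the lower limit was between 25.2 and 30.3 counts. These intervals cover counting error only and were not scaled to the unequal library sizes, so their overlap was not judged. After scaling, Vgll2 stood at 0.5615 and 0.5115 CPM in EV, 0.2737 CPM in TC and 0.508 to 0.669 CPM in TC + ATA. For Vgll2 the log2 fold change of TC over EV was −0.97 (95% interval −2.11 to 0.18, adjusted p = 0.197 from edgeR) and 0.08 in TC + ATA versus EV (95% interval −0.70 to 0.87, adjusted p = 0.883 from edgeR). The Vgll2 difference was not resolved at this depth.

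Vgll3, a TEAD cofactor of mesenchymal and muscle precursor cells, lies on chromosome 16 from 65815257 to 65866368 on the plus strand (ENSMUSG00000091243). Its level was 43.46 and 45.84 CPM in EV, 92.55 CPM in TC and 95.66, 92.54 and 85.81 CPM in TC + ATA. TC fell inside the TC + ATA range, and both were well above EV. Over EV the log2 fold change was 1.05 for TC (SE 0.09, 95% interval 0.85 to 1.25, adjusted p = 3.56e-05 from edgeR) and 1.03 for TC + ATA (SE 0.07, adjusted p = 6.29e-06 from edgeR).

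Vgll4, the cofactor that antagonises YAP on TEADs, lies on chromosome 6 from 114860628 to 114969994 on the minus strand (ENSMUSG00000030315). It was read at 43.84 and 46.1 CPM in EV, 104.2 CPM in TC and 115.8, 110 and 106.7 CPM in TC + ATA. All 3 TC + ATA libraries were above the TC library, and all 4 were far above both EV libraries. The log2 fold change of TC over EV was 1.21 (SE 0.08, 95% interval 1.02 to 1.40, adjusted p = 1.05e-05 from edgeR). It was 1.30 in TC + ATA versus EV (SE 0.07, 95% interval 1.15 to 1.45, adjusted p = 1.09e-06 from edgeR), with 2.68% of genes of at least 5 CPM showing a larger one.

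**Figure D2:**
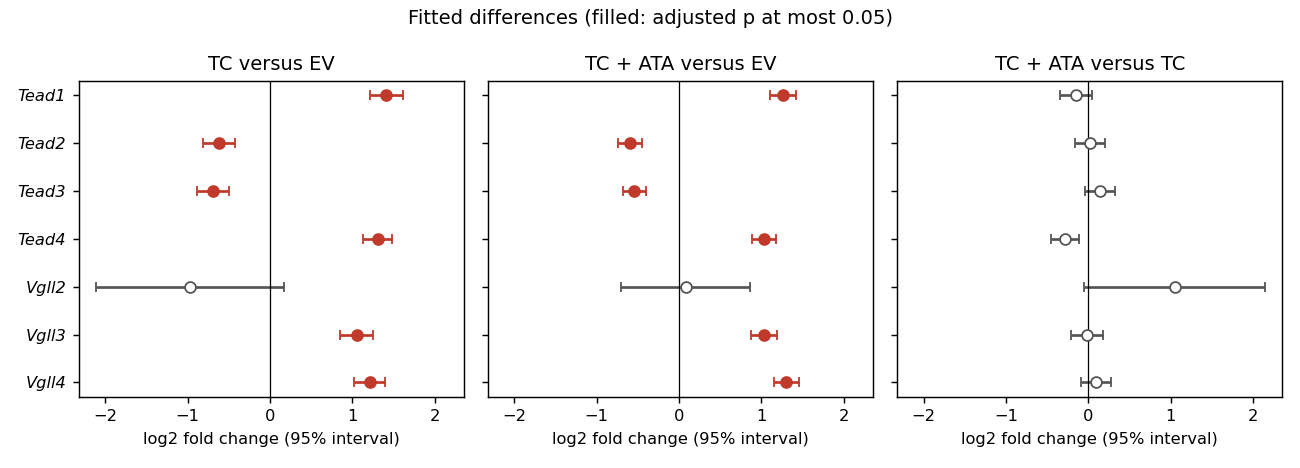
Fitted log2 fold changes with 95% intervals for the 7 members tested, in TC versus EV, TC + ATA versus EV and TC + ATA versus TC. Filled symbols mark an adjusted p of at most 0.05 from edgeR. Both comparisons with EV show Tead1, Tead4, Vgll3 and Vgll4 to the right of 0 and Tead2 and Tead3 to the left, and no member is filled in TC + ATA versus TC.

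In this RNA-seq, the question of what ATA changed in TC-expressing cells rested on 3 libraries against 1. The paper reports lower TEAD reporter activity with ATA in HEK293 cells. In NIH3T3 cells it reports lower qPCR levels of canonical target genes and a negative enrichment of TC-raised genes. The reporter assay, the qPCR and the enrichment were not repeated here. In these counts the qPCR genes Ccn1, Ccn2, Amotl2 and Ankrd1 were called higher in TC + ATA versus EV, as were 18.0% of all genes. None of them was called in TC + ATA versus TC, where 0.583% of all genes were. For the members the fitted differences were small next to those from EV, apart from Vgll2 with its few reads. Tead4 had −0.28 on the log2 scale in TC + ATA versus TC (95% interval −0.45 to −0.11), an unadjusted p of 0.00502 and an adjusted p of 0.204 from edgeR. It was the 1 member of 7 with an unadjusted p under 0.05, and 1781 of the 18539 genes had one. DESeq2 called 0 of the members as well. Tead1 had −0.15 (95% interval −0.34 to 0.05, adjusted p = 0.649 from edgeR). Both passed the threshold when only the libraries of TC and TC + ATA were fitted, where edgeR's adjusted p was 0.00692 for Tead4 and 0.0394 for Tead1, and also when either EV replicate was left out. Over the 13 alternatives the adjusted p ran from 0.00628 to 0.946 for Tead4 and from 0.029 to 0.981 for Tead1. The remaining members had log2 fold changes of 0.14 for Tead3 (95% interval −0.04 to 0.32), 0.02 for Tead2 (−0.16 to 0.20), −0.02 for Vgll3 (−0.21 to 0.17) and 0.09 for Vgll4 (−0.09 to 0.27). Vgll2 had 1.05 (95% interval −0.05 to 2.15, adjusted p = 0.545 from edgeR). All TC + ATA libraries stood on 1 side of the TC library for 5 of the 7 members and for 63.2% of all genes.

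Levels can be set against each other between genes only per length. In CPM per kb of exonic length, the EV levels were 30.6 ± 1.84 for Tead2 (SD, n = 2 for each EV value), 13.9 ± 0.277 for Tead3, 9.69 ± 0.00884 for Tead4, 8.33 ± 0.296 for Vgll4, 7.42 ± 0.603 for Tead1 and 6.29 ± 0.236 for Vgll3. No neighbours in this order overlapped between libraries, and Vgll4 and Tead1 were nearest, at 8.12 and 8.54 against 7.85 and 6.996 CPM per kb in the single libraries. Vgll2 stood at 0.325 ± 0.0214 CPM per kb. In the TC library, which has no spread of its own, the order was Tead4 at 24.0, Tead2 at 20.0, Tead1 at 19.7, Vgll4 at 19.3, Vgll3 at 13.0 and Tead3 at 8.62 CPM per kb. In TC + ATA the levels per kb of Vgll4 (20.5 ± 0.849, SD, n = 3 for each TC + ATA value), Tead2 (20.2 ± 0.501) and Tead4 (19.8 ± 0.698) did not differ beyond their spread, and Tead1 (17.8 ± 0.367), Vgll3 (12.9 ± 0.708) and Tead3 (9.52 ± 0.377) followed. On this scale Tead3 thus went from the second place in EV to the lowest of the 6 well-read members in TC-expressing cells. Per kb of coding sequence, a scale that leaves out the long untranslated exons of Tead1, the order in EV differed. It was Tead2 at 109.8, Tead1 at 77.0 ± 6.26, Tead3 at 63.9, Vgll4 at 48.6, Vgll3 at 45.8 and Tead4 at 27.2 CPM per coding kb. In TC, Tead1 was the highest member on that scale, at 204.8, and Tead3 was again the lowest of the 6, at 39.7. In TC + ATA, Vgll4 (119.8 ± 4.955), Tead2 (72.58 ± 1.795) and Tead4 (55.52 ± 1.961) stood apart per coding kb.

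The make-up of the TEAD pool was described by the share of each TEAD in the sum of the 4, in counts per kb of exonic length. Tead2 made up 50.6% and 48.8% of the pool in EV, 27.6% in TC and 29.2%, 30.4% and 30.5% in TC + ATA. Tead3 went from 21.7% and 23.4% in EV to 11.9% in TC and 14.5%, 14.0% and 13.9% in TC + ATA. Both shares were lower in every library of TC-expressing cells than in either EV library. Tead4 went from 15.3% and 16.1% in EV to 33.2% in TC and 29.6%, 29.5% and 28.9% in TC + ATA. Tead1 went from 12.4% and 11.6% in EV to 27.3% in TC and 26.7%, 26.0% and 26.7% in TC + ATA. On this scale Tead1 and Tead4 together thus passed from the smaller to the larger part of the pool. With 2 against 3 libraries the exact permutation test, two-sided, gave p = 0.2 for each share in TC + ATA versus EV, the smallest p that this design allows, and 0.2 after Benjamini-Hochberg adjustment over the 4 shares. The differences were 14.4 percentage points for Tead1, −19.6 for Tead2, −8.42 for Tead3 and 13.6 for Tead4, next to SDs within groups of 0.295 to 1.25 percentage points.

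**Figure D3:**
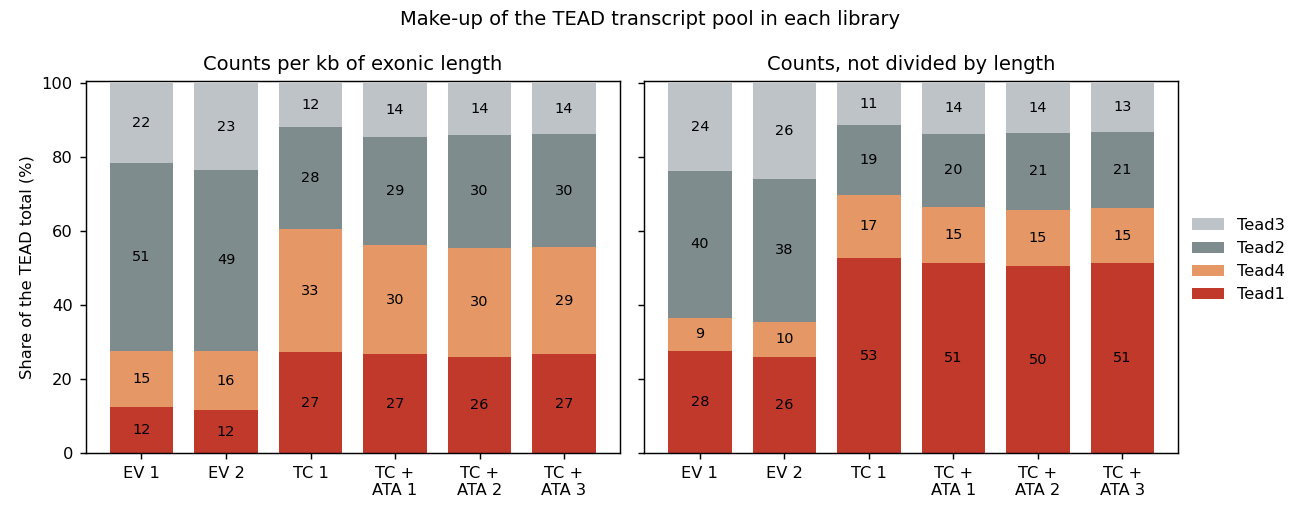
Share of Tead1, Tead4, Tead2 and Tead3 in the TEAD total of each library, in percent, from counts per kb of exonic length (left) and from counts not divided by length (right), printed to whole percents. Tead2 is the largest segment in both EV libraries on either scale, and the Tead1 and Tead4 segments are larger in the TC and TC + ATA libraries.

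Gene length changed which TEAD led in TC-expressing cells, but not the direction of any share. Tead2 led in EV under all 4 ways of counting length. In the TC library Tead4 led per kb of all exons with 33.2%, and Tead1 led with 52.8% of plain counts (Clopper-Pearson 95% interval 52.3% to 53.3%) and with 53.4% per coding kb. Per kb of the longest transcript none stood clearly ahead, with 28.2% for Tead2, 28.1% for Tead4 and 26.9% for Tead1. In plain counts, Tead1 held 27.6% and 26.0% of the reads of the 4 genes in EV and 51.4%, 50.5% and 51.3% in TC + ATA. Per kb of the longest transcript, Tead1 held 25.9%, 25.3% and 25.9% in TC + ATA and Tead4 24.7%, 24.6% and 24.1%. On that scale Tead1 and Tead4 together were not the larger part of the pool in every TC + ATA library. The TEAD total itself changed less than its parts. It was 63.1 and 60.1 CPM per kb in EV, 72.3 in TC and 68.2, 68.4 and 65.5 in TC + ATA. On the log2 scale TC stood 0.23 above EV and TC + ATA 0.13 above EV (exact permutation test, two-sided, p = 0.2, the smallest possible). The latter depended on length, at 0.34 in plain counts, 0.36 per coding kb and 0.04 per kb of the longest transcript, where the libraries of the groups overlapped (exact permutation p = 0.4).

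The VGLL transcripts were then set against the TEAD total and against transcripts of the coactivators YAP and TAZ. Vgll3 and Vgll4 together came to 0.226 and 0.250 of the TEAD total per kb in EV, 0.447 in TC and 0.512, 0.489 and 0.486 in TC + ATA. The ratio was 1.88 times the EV mean in TC and 2.09 times in TC + ATA, and every TC-expressing library stood above both EV libraries (exact permutation test of TC + ATA versus EV, two-sided, p = 0.2, the smallest possible). Yap1 and Wwtr1, the genes of YAP and TAZ, together came to 0.614 and 0.624 of the TEAD total in EV, 0.628 in TC and 0.647, 0.643 and 0.669 in TC + ATA. That ratio depended on the length used, at 1.01 times the EV mean in TC per kb of exon and 0.838 times per coding kb. Vgll3 plus Vgll4 over Yap1 plus Wwtr1 was 0.367 and 0.400 in EV, 0.712 in TC and 0.792, 0.760 and 0.726 in TC + ATA. This last ratio was taken per kb of exon only. The TAZ-CAMTA1 transcript was not measured apart, so the ratio does not describe the full balance of cofactors in TC-expressing cells.

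**Figure D4:**
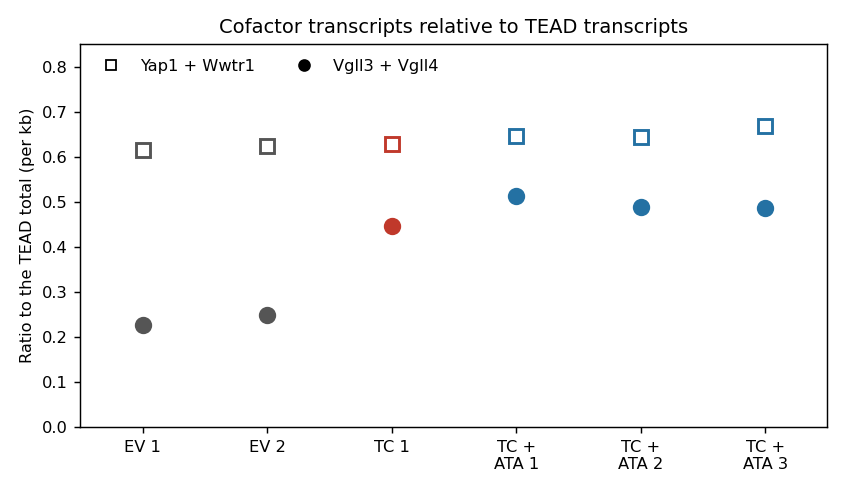
Ratio of cofactor transcripts to the TEAD total in each library, in counts per kb of exonic length, with Vgll3 + Vgll4 as filled circles and Yap1 + Wwtr1 as open squares, on a linear axis from 0. The circles stand at 0.226 and 0.250 in EV and between 0.447 and 0.512 in TC-expressing cells, and the squares lie between 0.614 and 0.669 in all 6 libraries.

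Among the partners of TEADs, Yap1 and Wwtr1 had smaller fitted changes in TC versus EV than any of the 6 called members. Yap1 was at 145.2 and 146 CPM in EV, 152 CPM in TC and 151.6 to 157 CPM in TC + ATA (log2 fold change 0.06 in TC versus EV, adjusted p = 0.603 from edgeR). Reads assigned to mouse Wwtr1, which cannot be split into endogenous and introduced TAZ sequence in these counts, stood 0.37 higher in TC than in EV on the log2 scale (SE 0.08, edgeR's adjusted p = 0.00697). That call did not hold with only the EV and TC libraries fitted, where edgeR's adjusted p was 0.132. Camta1, the other fusion partner, had 0.16 (adjusted p = 0.411 from edgeR), and 0.30 without EV replicate 1 (adjusted p = 0.0298 from edgeR). Of the 5 coactivator genes tested (Yap1, Wwtr1 and the steroid receptor coactivators Ncoa1 to Ncoa3), 2 were higher and 1 lower than EV both in TC and in TC + ATA, where 28.0% and 36.6% of all genes were called in either direction, with a median log2 fold change of 0.06 in TC versus EV against −0.03 over all genes tested. Ncoa3 was at 33.64 and 36.88 CPM in EV, 66 CPM in TC and 60.66 to 61.83 CPM in TC + ATA (log2 fold change 0.90, adjusted p = 6.35e-05 from edgeR). Ncoa2 was lower, at 71.73 and 72.27 CPM in EV, 49.07 CPM in TC and 51.74 to 55.38 CPM in TC + ATA (log2 fold change −0.55, adjusted p = 0.00117 from edgeR).

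Genes of the Hippo pathway, whose kinases keep YAP and TAZ out of the nucleus, were more often higher than lower. Of 18 core kinases and scaffolds tested, 9 were higher and 1 was lower in TC versus EV, with a median log2 fold change of 0.25, where 14.8% and 13.2% of all genes tested were higher and lower. In TC + ATA versus EV 9 were higher and 2, Stk3 and Amot, were lower, against 18.0% and 18.6% of all genes. Lats2, a kinase that phosphorylates YAP and TAZ and is itself a target of theirs, had the largest change, from 17.75 and 19.09 CPM in EV to 64.05 CPM in TC and 63.28 to 63.7 CPM in TC + ATA (log2 fold change 1.80, adjusted p = 1.15e-06 from edgeR). Amot, a scaffold that binds YAP and TAZ, was the member of that list that was lower in TC, at 62.7 and 55.85 CPM in EV and 31.39 CPM in TC (log2 fold change −0.92, adjusted p = 0.000148 from edgeR). Without EV replicate 2, 16 genes of the list were called in TC versus EV, and the count over all genes went from 5191 to 7329.

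Of 22 reported YAP/TAZ-TEAD targets, 14 were higher and 2 (Foxf2 and Ccdc80) lower in TC versus EV, with a median log2 fold change of 0.58, and 17 were higher and the same 2 lower in TC + ATA versus EV. The shares over all genes are those given for the Hippo genes. The Hippo and target lists share Lats2, Amotl2 and Ptpn14, all 3 of them higher. Ccdc80, a secreted matrix protein, was at 63.92 and 73.62 CPM in EV, 24.87 CPM in TC and 35.72 to 36.76 CPM in TC + ATA (log2 fold change −1.47 in TC versus EV, adjusted p = 1.55e-05 from edgeR). In TC + ATA versus TC, 7 of the 22 targets had an unadjusted p under 0.05 from edgeR, next to 1781 of the 18539 genes tested. The median log2 fold change of the list was 0.007. The 1 target called there was F3, the gene of tissue factor, which starts blood coagulation. It was at 61.6 and 72.05 CPM in EV, 81.56 CPM in TC and 129.7, 137.6 and 132.8 CPM in TC + ATA, so ATA-treated cells stood farthest from EV (0.71 above TC on the log2 scale, adjusted p = 0.0198 from edgeR). This call was lost without any one of the TC + ATA replicates, where edgeR's adjusted p was 0.0927, 0.14 and 0.155, and 7 targets were called when the EV libraries stayed out of the fit, which raised the count over all genes from 108 to 1428.

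Of 6 other transcription factor partners of TEADs, 1 was called in TC and 2 were called in TC + ATA relative to EV, next to 28.0% and 36.6% of all genes tested. Mef2c, a MADS-box factor of muscle and other lineages, was lower, at 13.57 and 14.32 CPM in EV, 5.32 CPM in TC and 6.99 to 7.28 CPM in TC + ATA (log2 fold change −1.39 in TC versus EV, adjusted p = 7.54e-05 from edgeR). Mef2d had a log2 fold change of 0.17 in TC + ATA versus EV (adjusted p = 0.0449 from edgeR), and 0.08 with scaling to library totals alone (adjusted p = 0.279 from edgeR). In TC + ATA versus TC edgeR called 0 of the coactivators, Hippo genes and other partners, next to 0.583% of all genes tested. Of these lists 0, 1 and 1 genes had an unadjusted p under 0.05 from edgeR, and DESeq2 called 0 as well.

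Likeness of pattern was measured as the root mean square difference between log2 CPM profiles over the 6 libraries, each centred on its mean, against 10421 other genes of at least 5 CPM. It is a description over 6 libraries that differ mainly between EV and TC-expressing cells, so any gene with a step of the same size ranks high. Nearest to Tead1 were Ddah1, an enzyme that degrades methylarginines, at 0.0165, the microtubule protein gene Map6 at 0.0223 and Myadm at 0.0343. Tead4 was nearest to Txnrd1, a thioredoxin reductase, at 0.0332, Gab2 at 0.0345 and the gap junction gene Gja1 at 0.0376. Tead2 lay nearest to Stard4, Fam171a2 and Erg28 at 0.0309 to 0.0320, and Tead3 to Tcf19, Tcaf1 and Grb10 at 0.0281 to 0.0284. The profiles of the lower members were more common, with 393 genes within 0.1 of Tead2 and 425 within 0.1 of Tead3, against 58 for Tead1 and 61 for Tead4. Vgll3 was nearest to Arhgef18, Srgap3 and Snx8 at 0.0308 to 0.0349 and Vgll4 to Mgat3, Raet1d and Ap1s2 at 0.0340 to 0.0436, with 122 and 66 genes within 0.1. Vgll2, with few reads, had no gene within 0.1, and Fhl1, Atoh8 and Daam2 came nearest at 0.133 to 0.152. Between the members themselves, Tead2 and Tead3 differed by 0.0748, Tead4 and Vgll3 by 0.101, Tead1 and Vgll4 by 0.110, and Tead1 and Tead2 by 0.900.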

How the data were processed

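The authors extracted RNA with the RNeasy Mini kit, made poly(A)-selected NEBNext Ultra II libraries, sequenced them on a HiSeq instrument, mapped reads with HISAT2 to GRCm38.p6 (version 2.2.1 per the submitters' processing notes) and counted them per gene with featureCounts in Galaxy. What they deposited are raw counts per gene, not normalized. How strand and multiply matching reads were handled, and which annotation release was used, is not given in the sources used here, so reads of genes with similar copies or overlaps may have been lost or shared.

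Groups came from the sample labels. All 6 libraries were fitted together in R 4.3.3 with edgeR 4.0.16 (filterByExpr, TMM, glmQLFit, glmQLFTest), with Benjamini-Hochberg adjustment over 18539 genes and a threshold of 0.05. Standard errors came from the F statistic and 95% intervals from the t distribution. Symbols, positions and lengths (union of exons) came from GENCODE M21, which held 55141 of the 55401 identifiers. Shares, totals and ratios were compared with exact permutation tests in scipy 1.17.1. Promoter windows came from the RefSeq table of GRCm38.p6, and a match needed every letter.

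The members and gene lists were chosen with earlier results of these data known, so they are not independent evidence. Besides the members and the fusion partners, the largest and smallest called log2 fold change of each list (mean of at least 5 CPM) and the 3 genes nearest in pattern to each member were named. The fit was tested on simulated data. Alternatives were DESeq2 1.42.0, other scalings and filters, fits of the compared groups only, a replicate block, other gene lengths and each replicate left out. Those for the pathway lists, the named pathway genes and the cofactor ratios were added after the data had been seen.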

Additional observations from a re-analysis of the deposited data

How the results depend on the processing

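The calls of the 6 members against EV held in 156 of 156 alternative values, with no change of sign. Values near 0 that were not called did change sign, those of Tead2 and Vgll3 in TC + ATA versus TC and of Vgll2 in TC + ATA versus EV, which went from 0.08 to −0.04 without TC + ATA replicate 1. Precision is limited by the number of libraries, with 1 in TC, rather than by depth, except for Vgll1 and Vgll2. Leaving out an EV replicate left EV and TC with 1 library each, assumed to vary like TC + ATA. Vgll2 gave no value under the filter of 1 CPM. EV and TC + ATA share replicate numbers 1 and 2 in the labels. Their deviations from the group means correlated at −0.03 and −0.09 across genes. With 2 EV libraries the deviations of each mirror those of the other, so this check cannot decide whether the numbers pair the libraries. The main fit did not pair them, and the replicate block was fitted as an alternative. With the replicate block, 3184 genes were called in TC versus EV instead of 5191, 40 instead of 108 in TC + ATA versus TC and 4645 instead of 6789 in TC + ATA versus EV, and among the named pathway genes Wwtr1 in both comparisons with EV (adjusted p = 0.106 and 0.0641 from edgeR), Mef2d in TC + ATA versus EV (0.253) and F3 in TC + ATA versus TC (0.148) lost their calls. In TC + ATA versus TC the count was 1428 with only those groups fitted, 321 with DESeq2, 350 with no filter, and 10 to 1469 with each replicate left out, lowest without TC + ATA replicate 3 and highest without EV replicate 1. It was 1416 without EV replicate 2, and 40 and 28 without TC + ATA replicates 1 and 2. The cause was not tested. With library size as the only scaling, the higher share of calls went from 52.7% to 39.6% in TC versus EV and from 49.2% to 38.2% in TC + ATA versus EV, and the median of all genes moved by −0.11 and −0.09 on the log2 scale.

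In the pathway lists, called targets in TC + ATA versus TC numbered 7 with only those groups fitted, 3 with DESeq2, 3 with no filter, 0 with library size scaling, 0 with the replicate block, and 0 to 7 with each replicate left out. Called transcription factor partners in TC versus EV numbered 2 with library size scaling, with DESeq2 size factors and with the filter of 1 CPM, and 1 to 3 with each replicate left out. In TC + ATA versus EV they numbered 1 with DESeq2, 1 with no filter, 1 with the replicate block and 1 to 3 with each replicate left out, and in TC + ATA versus TC 0 to 1. Hippo genes numbered 9 to 16 in TC versus EV and 0 to 1 in TC + ATA versus TC with each replicate left out.

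Length changed the size of the share differences between TC and EV. That of Tead1 was 15.3 percentage points, and 26.0 in plain counts, 25.7 per coding kb and 15.9 per kb of the longest transcript. That of Tead2 was −22.1, and −20.2 in plain counts and −18.9 per kb of the longest transcript. That of Tead3 was −10.6, and −13.5 in plain counts and −12.7 with either other length. That of Tead4 was 17.4, and 7.71 in plain counts, 7.77 per coding kb and 15.7 per kb of the longest transcript. The TEAD total was higher in TC than in EV by 0.231 on the log2 scale, and by 0.436 in plain counts, 0.464 per coding kb, 0.124 per kb of the longest transcript and 0.124 with library size scaling. The ratio of Yap1 plus Wwtr1 to the TEAD total in TC was 1.01 times that in EV, and 0.85 times in plain counts and 0.838 times per coding kb. That of Vgll3 plus Vgll4 stayed above 1 with every length, between 1.59 and 2.07 times.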
